A study of Mus musculus with 6 samples.

Results

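The Kruppel-like factors (Klf) are zinc finger proteins that bind GC-rich and CACCC sequences in promoters and raise or lower transcription. The 10 genes described here are Klf2, Klf3, Klf4, Klf5, Klf6, Klf7, Klf10, Klf11, Klf12 and Klf13, chosen by name as members of heart and vessel tissue. All 10 were found among the 54532 genes of the table, and 9 passed the filter on low counts, Klf5 being the exception. RNA was sequenced from mouse hearts at day 14 after myocardial infarction (MI), 3 wild type (WT) and 3 lacking the atypical chemokine receptor ACKR4 (ACKR4_KO). ACKR4 is a scavenger that removes CCL19, CCL21 and CCL25. Both groups were C57BL/6, aged 8 to 10 weeks, and both had the infarct, so WT stands for the infarcted heart and not for a healthy one. Uninjured hearts were not analysed here. Nothing was stated, in the sources used here, about sex, the part of the heart sampled, the knockout allele or any pooling of animals. P-values therefore measure the spread between these samples, which may be technical.

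Klf2 and Klf4 are known from endothelium, where laminar flow induces them through the kinases MEKK3, MEK5 and ERK5 and the MEF2 factors, and where they favour an anti-inflammatory and anti-clotting state. Klf4 also takes part in the change of smooth muscle cells away from the contractile state, and Klf5 acts in smooth muscle, cardiac fibroblasts and cardiomyocytes. Klf6 is induced by tissue injury, and Klf7 is best known from neurons. Klf3 and Klf12 repress through the CtBP co-repressors, and Klf10 and Klf11 are early genes of TGF-beta signalling that recruit Sin3 co-repressors. Klf13 regulates chemokine expression in T cells and is a partner of GATA4 in heart muscle.

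The promoters of Klf2, Klf4 and Klf6 are shown because these genes had the highest levels per length, as described further on. They were also lowest in the same library, which held for 8 of the 9 tested members. Each window runs from 250 bases before to 50 bases after the RefSeq start site on GRCm38.p6, read in the direction of transcription. The Klf2 window is chr8:72318812-72319111 on the plus strand, the Klf4 window chr4:55532426-55532725 on the minus strand and the Klf6 window chr13:5861239-5861538 on the plus strand. Capitals mark matches to the MEF2 motif, the GC box and the CCAAT box.
Klf2: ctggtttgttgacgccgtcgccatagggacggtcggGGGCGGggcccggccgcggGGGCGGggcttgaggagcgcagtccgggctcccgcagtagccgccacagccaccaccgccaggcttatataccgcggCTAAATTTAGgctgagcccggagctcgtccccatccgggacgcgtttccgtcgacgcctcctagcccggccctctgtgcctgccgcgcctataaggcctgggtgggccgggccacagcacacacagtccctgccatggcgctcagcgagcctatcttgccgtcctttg
Klf4: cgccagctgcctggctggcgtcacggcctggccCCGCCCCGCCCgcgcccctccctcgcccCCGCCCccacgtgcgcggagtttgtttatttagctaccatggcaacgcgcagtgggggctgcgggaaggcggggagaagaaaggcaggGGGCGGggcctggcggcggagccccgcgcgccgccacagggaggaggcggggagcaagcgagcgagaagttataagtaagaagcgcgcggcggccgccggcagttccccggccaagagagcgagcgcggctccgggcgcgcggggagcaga
Klf6: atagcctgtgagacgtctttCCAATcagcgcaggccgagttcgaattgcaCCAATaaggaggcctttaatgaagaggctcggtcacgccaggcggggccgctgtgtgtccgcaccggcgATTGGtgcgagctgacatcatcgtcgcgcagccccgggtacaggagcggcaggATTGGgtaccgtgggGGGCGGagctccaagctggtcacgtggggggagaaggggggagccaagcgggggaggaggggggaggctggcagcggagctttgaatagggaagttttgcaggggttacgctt

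The motifs were searched on both strands in the 8 members with a window, and the shares refer to all 32851 windows of the reference. A window was not used for Klf5 and Klf10. The MEF2 motif was found in Klf2 alone of the 8, as CTAAATTTAG starting 118 bases before the start site, and 3.19% of all windows hold it. The GC box (GGGCGG) was present in 7 of 8 windows against 35.7% of all, with 2 matches in Klf2, 4 in Klf4 and 1 in Klf6. The CACCC box (CACCC) was present in 5 of 8 against 57.5%, the CCAAT box (CCAAT) in 3 of 8 against 37.4% and the TATA box (TATAAA) in 1 of 8 against 13.6%. The CArG box and the CRE (TGACGTCA) were found in 0 of 8, with 1.63% and 1.79% of all windows holding them. In Klf3 and in Klf13 a GC box overlapped a CACCC box, and no motif of the Klf2, Klf4 and Klf6 windows overlapped another kind. The GC content was 69.3% in Klf2, 74.3% in Klf4 and 63% in Klf6, where the median window has 52.7%. A motif match describes these letters and is not a measured binding site.

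Library totals ran from 9422462 to 13910358 counted reads, which gave each of the 9 members tested at least 104 reads in every library. Ackr4 itself had 151 to 169 reads in WT and 1 to 12 in ACKR4_KO, as the labels say. By edgeR its log2 fold change was -4.70, with an adjusted p of 0.0990. Ackr4 thus did not pass the threshold of 0.05 either, so a count of 0 genes past it does not show the absence of a change. The libraries also differed in transcripts of other tissues. A set of 9 lung epithelial markers summed to 41.2 to 255 CPM in WT and 0.404 to 1.92 CPM in ACKR4_KO. CPM is the usual counts-per-library unit, here with TMM-scaled library sizes. Only 6 of the 9 passed edgeR's filter, and 0 passed its test. All 6 had ACKR4_KO below WT, against 7.63% of all genes, and were lower at an unadjusted p under 0.05, against 3.64%. DESeq2 called 8, among them Sftpd and Lamp3, which edgeR's filter had left out. Biological variation between libraries of one genotype, as edgeR estimates it, came to 11.7% in WT against 26.7% in ACKR4_KO. Among 14406 genes tested with edgeR, 0 (0%) reached an adjusted p under 0.05 and 1073 (7.45%) an unadjusted p under 0.05. DESeq2, run without edgeR's filter, called 41 of 25452 genes. By edgeR the unadjusted count was 620, 669 and 478 without WT replicate 1, 2 and 3, and 1906, 985 and 1846 without ACKR4_KO replicate 1, 2 and 3.

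The levels of the members spanned a wide range. In CPM per kilobase of merged exon (RPKM), Klf2 stood highest in WT at 130 ± 13.7 (SD, n = 3), above 97.7% of the genes tested. Klf4 at 39.8 ± 1.52 and Klf6 at 36.9 ± 3.95 came next, and the ranges of their WT libraries overlapped. Klf13 followed at 10.8 ± 0.719, Klf10 at 7.60 ± 0.438, Klf3 at 6.30 ± 0.191 and Klf11 at 5.62 ± 0.638. The WT ranges of Klf3 and Klf11 overlapped, while those of the other neighbours in the order did not. Klf7 had 3.25 ± 0.642 RPKM, Klf12 2.01 ± 0.442 and Klf5 0.122 ± 0.0427. The order of the 10 means was the same in ACKR4_KO. With the longest coding transcript as the length, a choice made after the data were seen, Klf3 moved from rank 6 to rank 4 in WT, because its merged exons cover 11243 bases and that transcript 5221. The order of the other 9 genes among themselves did not change.

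**Figure D1:**
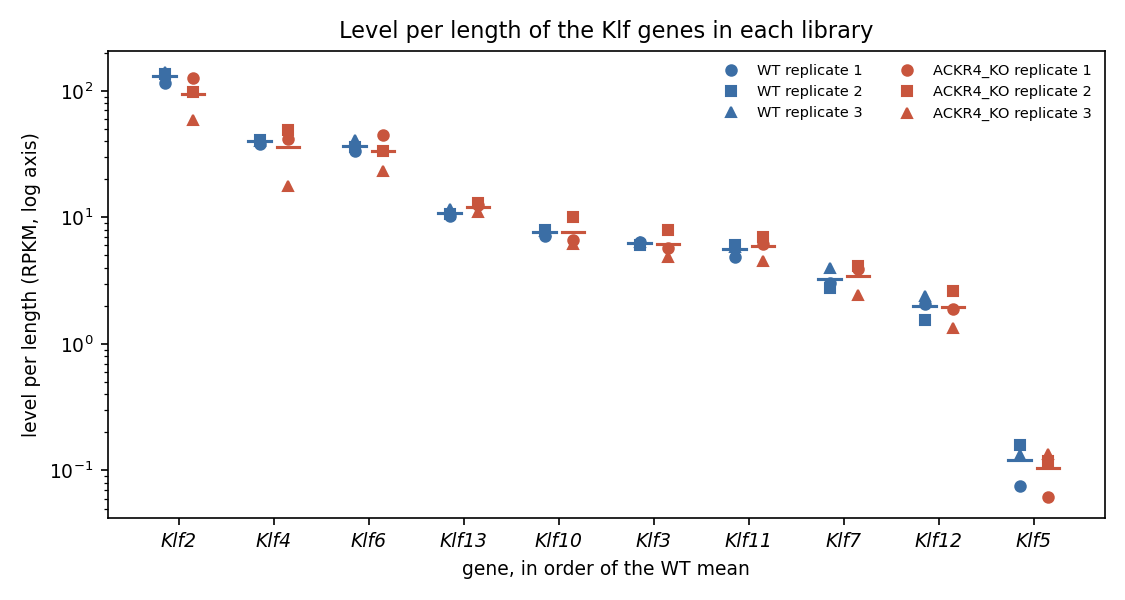
Level per length of each Klf gene (RPKM, log axis) in the 3 WT and 3 ACKR4_KO libraries, with one mark per library and a line at each group's mean. Klf2 lies highest at a WT mean of 130 RPKM and Klf5 lowest at 0.122, and ACKR4_KO replicate 3 is the lowest mark for 8 of the 9 genes above Klf5.

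None of the 9 tested members passed the comparison of genotypes by edgeR's quasi-likelihood test with Benjamini-Hochberg adjustment. The count was 0 at an adjusted p of 0.05, where the background over all genes tested was 0%, and also 0 at an unadjusted p under 0.05, where it was 7.45%. DESeq2, limma-voom and limma-voom with a weight per genotype called 0 members as well. In none of the 9 did the 3 ACKR4_KO libraries lie wholly above or below the WT libraries, against 14.2% of all genes tested (6.53% above and 7.63% below). The fitted log2 fold change (ACKR4_KO minus WT) was below 0 in 6 of 9 members, against 48.0% of all genes, with a median of -0.03 beside 0.01 over all genes. In a bulk heart sample, fewer cells of a type and less RNA per cell cannot be told apart.

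Klf2 (ENSMUSG00000055148, chromosome 8, 72319033 to 72321656, plus strand) had the smallest p of the 9 tested members. Its level was 212, 250 and 260 CPM in WT replicates 1, 2 and 3, and 231, 180 and 110 CPM in ACKR4_KO replicates 1, 2 and 3. ACKR4_KO replicate 1 lay inside the WT range, and the other 2 knockout libraries lay below it, replicate 3 at 45.5% of the WT mean. The means were 241 ± 25.3 CPM in WT and 174 ± 61.2 CPM in ACKR4_KO. The fitted log2 fold change of -0.47 (SE 0.25) had a 95% interval from -1.04 to 0.10, or from 0.487-fold to 1.07-fold. By edgeR the adjusted p was 0.691 and the unadjusted p 0.0940. It was -0.22 without ACKR4_KO replicate 3 and -0.73 without ACKR4_KO replicate 1, where the unadjusted p was 0.0137 and the adjusted p 0.265.

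Klf4 (ENSMUSG00000003032, chromosome 4, 55527143 to 55532466, minus strand) was at 116, 126 and 122 CPM in the WT libraries. In ACKR4_KO it was at 127, 148 and 53.9 CPM, so that replicates 1 and 2 lay above every WT library and replicate 3 far below, at 44.4% of the WT mean. The means of 121 ± 4.65 and 110 ± 49.5 CPM differed by less than the spread between the ACKR4_KO libraries. On the log2 scale the difference was -0.15 with an interval from -0.93 to 0.64 (adjusted p = 0.925 by edgeR). Without ACKR4_KO replicate 3 it was 0.19, and without ACKR4_KO replicate 2 it was -0.42.

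Klf6 (ENSMUSG00000000078, chromosome 13, 5861482 to 5870394, plus strand), the injury-induced member, had 147, 159 and 181 CPM in WT and 197, 146 and 102 CPM in ACKR4_KO. The ACKR4_KO libraries thus lay on both sides of the WT range. Its log2 fold change was -0.13 (95% interval -0.64 to 0.38), and 0.09 without ACKR4_KO replicate 3 and -0.39 without ACKR4_KO replicate 1. Klf7 (ENSMUSG00000025959, chromosome 1, 64029447 to 64122282, minus strand) had 24.7, 22.3 and 32.3 CPM in WT and 31.6, 33.3 and 19.7 CPM in ACKR4_KO, and the fit gave 0.09 (-0.41 to 0.59) on the log2 scale. Its lowest library was again ACKR4_KO replicate 3, and its value without that library was 0.29. Of its 8131 exon bases 3196 are shared with an antisense lincRNA, Gm26649, listed with 0 reads, so reads from that stretch are of uncertain assignment.

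Both CtBP-binding members had fitted changes near 0. Klf3 (ENSMUSG00000029178, chromosome 5, 64803388 to 64832901, plus strand) had 72.0, 68.3 and 72.0 CPM in WT, a spread of 3.04% that is no larger than counting error alone would give (3.37%). In ACKR4_KO it had 64.3, 88.9 and 54.9 CPM, wider than the WT range on both sides. Its fitted difference was -0.03 on the log2 scale (95% interval -0.43 to 0.37), and it was 0.12 without ACKR4_KO replicate 3 and -0.24 without ACKR4_KO replicate 2. Its antisense transcript Gm20033 shares 404 exon bases and had 67 reads over all libraries. Klf12 (ENSMUSG00000072294, chromosome 14, 99870632 to 100284679, minus strand) had 14.5, 10.7 and 16.8 CPM in WT and 13.2, 18.4 and 9.34 CPM in ACKR4_KO. Its log2 fold change was -0.05 (-0.65 to 0.55), with 0.16 without ACKR4_KO replicate 3 and -0.32 without ACKR4_KO replicate 2.

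Of the TGF-beta early members, neither passed the test. Klf10 (ENSMUSG00000037465, chromosome 15, 38291463 to 38300706, minus strand) had 29.7, 33.2 and 32.4 CPM in WT and 27.5, 42.0 and 25.8 CPM in ACKR4_KO. Its means were 31.8 ± 1.83 and 31.8 ± 8.92 CPM, with a log2 fold change of -0.0027 and an interval from -0.43 to 0.42, and -0.25 without ACKR4_KO replicate 2 and 0.13 without ACKR4_KO replicate 3. Klf11 (ENSMUSG00000020653, chromosome 12, 24651274 to 24662789, plus strand) had 21.2, 26.4 and 25.5 CPM in WT and 27.0, 30.4 and 19.6 CPM in ACKR4_KO. Replicates 1 and 2 of ACKR4_KO lay above the WT libraries and replicate 3 below them. The fit gave 0.07 on the log2 scale (-0.33 to 0.48), and without ACKR4_KO replicate 3 it was 0.24.

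Klf13 (ENSMUSG00000052040, chromosome 7, 63886351 to 63938915, minus strand) was the most even member. It had 76.9, 80.6 and 87.5 CPM in WT and 94.6, 97.5 and 83.2 CPM in ACKR4_KO, so 2 of 3 knockout libraries lay above all WT libraries and the remaining one inside their range. The means were 81.7 ± 5.42 and 91.8 ± 7.58 CPM. A log2 fold change of 0.17 had the smallest standard error of the 9 members, 0.12, and an interval from -0.10 to 0.44 (adjusted p = 0.744 by edgeR). A change beyond 1.36-fold upward or below 0.932-fold lies outside that interval. Klf5 (ENSMUSG00000005148, chromosome 14, 99298691 to 99315036, plus strand) had 5, 8 and 10 reads in WT and 4, 6 and 8 reads in ACKR4_KO, or 0.323 to 0.823 CPM. It was too low to be tested in the main fit, and a difference between the genotypes was not detectable at this depth.

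**Figure D2:**
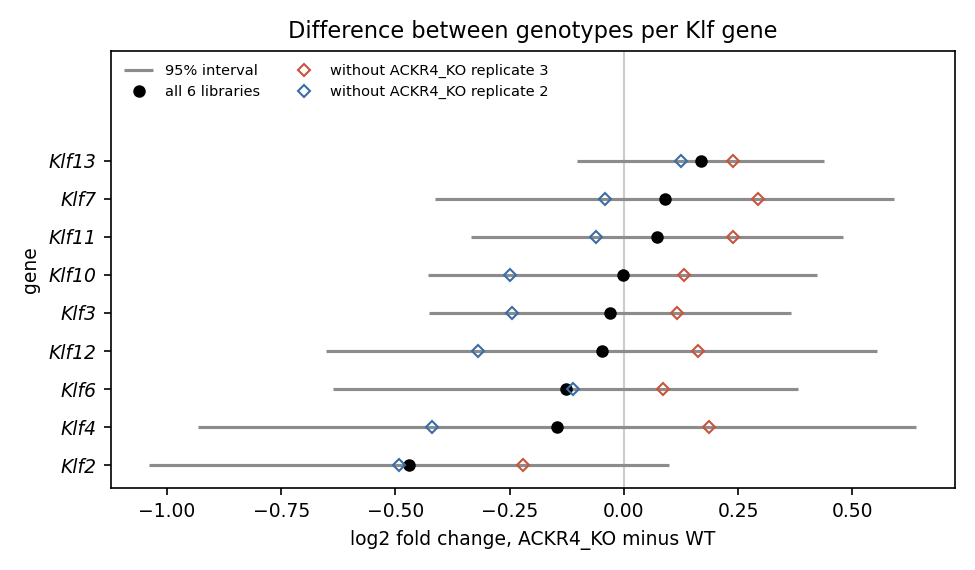
Log2 fold change (ACKR4_KO minus WT) of the 9 tested Klf genes, with the 95% interval of the fit to all 6 libraries as a grey line and the values without ACKR4_KO replicate 2 or 3 as open diamonds. Every interval includes 0, and without replicate 3 the values of 8 genes lie above 0, Klf2 at -0.22 being the exception.

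Single knockout libraries stood at the ends of the range for most members. ACKR4_KO replicate 3 was the lowest of the 6 libraries in 8 of 9 members, a position it held in 23.0% of all genes tested, and for Klf13 the lowest library was WT replicate 1. Of the other Klf and Sp factors tested, Klf9, Sp1, Sp3 and Sp4 were also lowest in ACKR4_KO replicate 3, and Klf15, Klf16 and Sp2 were not. ACKR4_KO replicate 2 was the highest in 7 of 9 members, against 24.6% of all genes. The exceptions were Klf2, highest in WT replicate 3, and Klf6, highest in ACKR4_KO replicate 1. On the log2 scale the mean deviation of the 9 members from their own 6-library means was -0.03, 0.005 and 0.17 in WT replicates 1, 2 and 3. It was 0.10, 0.25 and -0.49 in ACKR4_KO replicates 1, 2 and 3. The members share library and depth, so these counts do not stand for independent observations. Red cell markers had their highest sum in ACKR4_KO replicate 2 (639 CPM) and their lowest in ACKR4_KO replicate 3 (137 CPM), with 263 to 319 CPM in WT and 201 CPM in ACKR4_KO replicate 1. Neutrophil markers summed to 3.58 CPM in ACKR4_KO replicate 3 and to 15.4 to 23.9 CPM in the other libraries. Their part in the Klf values was not tested.

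**Figure D3:**
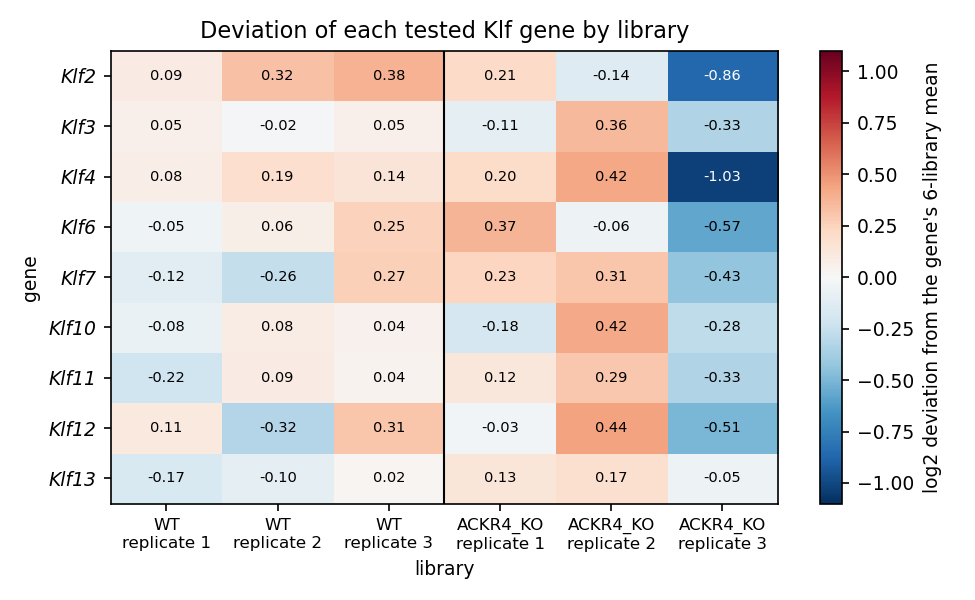
Deviation of log2 CPM from each gene's mean over the 6 libraries, for the 9 tested Klf genes (rows) and the libraries (columns), red above and blue below the mean. The column of ACKR4_KO replicate 3 is below 0 in all 9 rows, down to -1.03 for Klf4 and -0.86 for Klf2, and replicate 2 of the same genotype is above 0 in 7.

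The spread between libraries was larger in ACKR4_KO than in WT for 9 of 9 members, against 74.7% of all genes tested, and at least 2 times larger for 5 of 9, against 43.5%. For Klf4 the coefficient of variation of the CPM values was 3.83% in WT and 45.2% in ACKR4_KO, while counting error alone would give 2.59% and 2.87%. For Klf2 it was 10.5% and 35.2%, and for Klf10 5.76% and 28.1%, where counting error alone would give Klf10 5.05% and 5.36%. Klf13 was close to even, with 6.63% and 8.26%. The difference in spread itself was not tested.

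**Figure D4:**
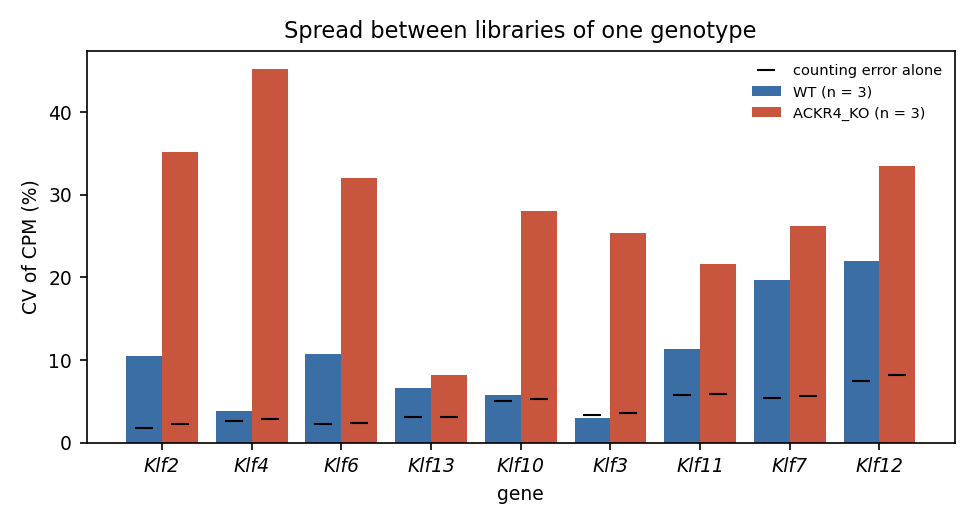
Coefficient of variation of CPM between the 3 libraries of each genotype for the 9 tested Klf genes, as bars from 0, with a short black line at the value that counting error alone would give. The ACKR4_KO bar is the taller one for every gene, from 8.26% for Klf13 to 45.2% for Klf4.

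Members differed in how alike they were across the 6 libraries. Likeness was measured as the mean absolute difference of log2 deviations, so that a smaller value means a more similar pattern. The closest pair was Klf3 and Klf10 at 0.07, and the farthest was Klf2 and Klf10 at 0.38. The genes other than the 10 members most like Klf2 were Plpp3, a lipid phosphate phosphatase, at 0.07, the lincRNA Gm36535 at 0.08 and Rps12-ps3, a copy of a ribosomal protein gene whose reads may belong to its parent, at 0.08. Plpp3 had 207, 213 and 232 CPM in WT and 202, 174 and 104 CPM in ACKR4_KO, with the groups apart but a log2 fold change of -0.44 that did not pass (adjusted p = 0.689 by edgeR). The genes most like Klf13 were Osbpl8, an oxysterol-binding protein, at 0.02, Tsc2, a brake on mTOR signalling, at 0.02 and Rnf214 at 0.03.

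Of the other Klf and Sp factors, 7 of 16 were tested and 0 passed in either direction by edgeR or DESeq2, with 3 higher, 4 lower and a median log2 fold change of -0.03. That median had no stable sign, being -0.05, -0.10 and 0.04 without WT replicate 1, 2 and 3, and -0.12, -0.08 and 0.10 without ACKR4_KO replicate 1, 2 and 3. Klf15, a glucocorticoid-responsive regulator of heart muscle metabolism, had 35.9, 43.5 and 35.2 CPM in WT and 71.2, 78.7 and 43.1 CPM in ACKR4_KO. Replicate 3 was again the low knockout library, just under the highest WT value. By edgeR the fitted log2 fold change was 0.75 (SE 0.22), with an adjusted p of 0.606 and an unadjusted p of 0.00793. Klf9, another glucocorticoid-responsive member, had 0.37, and the general factors Sp1 and Sp3 had -0.21 and -0.14. Klf1, Klf8 and Klf14 had at most 12 reads in any library, and Klf17 had 0 in all 6.

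No gene of the pathway upstream of Klf2 and Klf4 passed the test. This list of 16 covers the MEKK3, MEK5 and ERK5 kinases, the MEF2 factors, their histone deacetylases and the CCM complex that restrains the pathway. It also includes Map3k2 and Piezo1. Of the 16 genes, 15 were tested and 0 passed, with 7 higher and 8 lower. The median of -0.04 lay between -0.07 and 0.003 with each library left out, the ends coming without WT replicate 1 and without WT replicate 3. Their log2 fold changes lay between -0.17 and 0.14, and 0 had an unadjusted p under 0.05. The smallest p belonged to the MEF2 factor Mef2c at -0.14, followed by Mef2d at 0.14, the CCM gene Krit1 at 0.14 and the deacetylase Hdac7 at -0.11. Mef2c was the only 1 of 15 with ACKR4_KO wholly below WT, against 7.63% of all genes tested.

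Among 8 genes that Klf2 or Klf4 are known to raise in endothelium, 7 were tested and 0 passed, with 3 higher and 4 lower (median -0.14). Plpp3, described above for its likeness to Klf2, belongs to this list and had the list's smallest p, at -0.44. It was the only 1 of 7 with ACKR4_KO wholly below WT, against 7.63% of all genes tested. Nos3, endothelial nitric oxide synthase, had 57.6, 57.5 and 56.8 CPM in WT and 50.6, 73.5 and 67.7 CPM in ACKR4_KO. The angiopoietin receptor Tek had a log2 fold change of -0.28 and Cyp1b1, a cytochrome P450, -0.48. The summed level of the 8 genes was lowest in ACKR4_KO replicate 3, at 952 CPM, and highest in ACKR4_KO replicate 2, at 1986 CPM, while WT lay between 1322 and 1626 CPM. Without ACKR4_KO replicate 3 the median was 0.09, without ACKR4_KO replicate 2 it was -0.27 and without ACKR4_KO replicate 1 it was -0.08. Of 8 adhesion, clotting and vasoconstrictor genes that Klf2 or Klf4 are known to lower, 0 of 8 tested passed, with 2 higher and 6 lower (median -0.28, and -0.18 without WT replicate 2). Icam1, a leukocyte adhesion molecule, had 36.5, 32.0 and 36.6 CPM in WT and 27.3, 26.9 and 18.3 CPM in ACKR4_KO. By edgeR its log2 fold change was -0.54 with an adjusted p of 0.633 and an unadjusted p of 0.0115. Icam1 was the only 1 of 8 with ACKR4_KO wholly below WT, against 7.63% of all genes tested. It was also the only 1 of 8 lower at an unadjusted p under 0.05, against 3.64%. Endothelin, Edn1, had -0.47, the chemokine Ccl2 -0.42 and Vcam1 -0.13.

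The Smad signalling list around Klf10 and Klf11 had 0 of 18 genes past the test, with 3 higher and 15 lower and a median log2 fold change of -0.21, which moved to -0.10 with ACKR4_KO replicate 2 left out and to -0.13 with WT replicate 3 left out. At an unadjusted p under 0.05 there were 3 lower genes, where the background of lower genes was 3.64%. These were Id2, an inhibitor of helix-loop-helix factors, at -0.87, the inhibitory Smad6 at -0.39 and the receptor Tgfbr2 at -0.40, and next in order came Id3 at -0.24. In each of these 4 genes all ACKR4_KO libraries lay below all WT libraries (7.63% of all genes). Of the smooth muscle and fibroblast genes around Klf4 and Klf5, 0 of 12 passed, with 3 higher and 9 lower (median -0.12, and -0.05 without ACKR4_KO replicate 2). Myh11, the smooth muscle myosin, had -0.28, the actin-binding protein Tagln -0.85 at a WT level of only 1.85 to 2.33 CPM, and the contractile regulators Myocd and Srf had 0.23 and 0.19. Of 14 co-factors and ubiquitin ligases of Klf proteins 0 passed, 11 were higher and 3 lower, and the median was 0.04, with Sin3a at -0.22, Hdac3 at 0.16, Btrc at 0.18 and Sin3b at 0.14. The co-factors were split 7 to 7 without WT replicate 2 (median 0.02), and their median was 0.03 without WT replicate 1 and 0.07 without WT replicate 3 or without ACKR4_KO replicate 2.

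Immediate early genes outside the Klf family, which like Klf2, Klf4, Klf6 and Klf10 respond within minutes to stimulation and tissue handling, were lower in 18 of 22 (median -0.31), and 0 passed by edgeR. At an unadjusted p under 0.05 there were 8 lower genes and 0 higher, beside 3.64% and 3.81% of all genes. Junb had a log2 fold change of -0.50, Fos -2.04, Egr1 -1.38 and Egr2 -1.08, and DESeq2 called Fos alone (adjusted p = 0.00375). Fos had 56.5, 15.9 and 25.8 CPM in WT and 12.8, 5.43 and 5.41 CPM in ACKR4_KO, with the groups apart. ACKR4_KO lay wholly below WT in 4 of the 22 genes, against 7.63% of all genes tested. Klf2, Klf4, Klf6 and Klf10 themselves were not apart. The summed level of the 22 genes was 950 to 1321 CPM in WT and 677 to 1043 CPM in ACKR4_KO. Without ACKR4_KO replicate 3 the list was lower in 15 of 22 with a median of -0.17, and it was -0.54 when ACKR4_KO replicate 1 was left out.

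Marker lists of the cell types that a heart sample holds are given beside the Klf values. All 10 endothelial markers were lower in ACKR4_KO, none past the test, with a median of -0.25 and a summed level of 2119 to 2334 CPM in WT and 1598 to 2124 CPM in ACKR4_KO. The lowest sum was that of ACKR4_KO replicate 3, and without that library 8 of 10 were lower (median -0.17). The smallest p belonged to Cldn5, a tight junction protein, at -0.72, and Kdr, the VEGF receptor, at -0.44. Set against this sum in a ratio chosen after the values were seen, Klf2 came to 10.0%, 11.7% and 11.2% in WT and 13.1%, 8.50% and 6.86% in ACKR4_KO. Klf4 came to 5.49%, 5.87% and 5.23% and to 7.18%, 6.99% and 3.37%. Klf6 came to 6.92%, 7.40% and 7.75% in WT and to 11.1%, 6.87% and 6.39% in ACKR4_KO. The part that endothelial content has in the Klf values was not tested.

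Smooth muscle and pericyte markers were lower in 8 of 10 and summed to 2031 to 2330 CPM in WT and 1676 to 1992 CPM in ACKR4_KO. Fibroblast markers were lower in 8 of 9, with 9843 to 10908 CPM in WT and 5606 to 10470 CPM in ACKR4_KO, and the lowest sum was that of ACKR4_KO replicate 2. Their median of -0.40 was -0.21 without that library, with 6 of 9 lower, -0.61 without ACKR4_KO replicate 1 and -0.66 without ACKR4_KO replicate 3. Cardiomyocyte markers were higher in 8 of 9, with 27002 to 33538 CPM in WT and 36051 to 47008 CPM in ACKR4_KO, so heart muscle was present in every library. Macrophage and monocyte markers were lower in 9 of 9, at 1455 to 1847 CPM in WT and 1132 to 1709 CPM in ACKR4_KO (median -0.15). That count rested on ACKR4_KO replicate 2, without which 4 were higher and 5 lower with a median of -0.00088. The median was -0.23 without WT replicate 1, -0.09 without WT replicate 2 and -0.33 without ACKR4_KO replicate 1. T and NK cell markers were lower in 7 of 7 tested and low throughout, at 14.0 to 20.5 CPM in WT and 7.68 to 8.88 CPM in ACKR4_KO. By edgeR 0 of these markers passed, and DESeq2 called the fibroblast marker Pi16. WT replicate 1 had the highest sum of lung epithelial markers (255 CPM). It was the lowest WT library for Klf2, Klf4, Klf6, Klf10, Klf11 and Klf13, and not for Klf3, Klf7 and Klf12. All WT libraries had higher lung sums than all ACKR4_KO libraries, so lung content and genotype cannot be told apart. The part of these cell types in the Klf values was not tested.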

How the data were processed

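Hearts of 3 WT and 3 ACKR4_KO mice were sequenced, with groups and replicate numbers taken from the sample descriptions. The authors deposited raw counts (whole reads assigned to each gene), and per the submitters' processing notes used CASAVA 1.8.2, HISAT2 and HTSeq 0.6.0 with mm10. The labels' protocols name 1 ug of total RNA and the NEBNext Ultra RNA kit. The annotation release and strand setting were not found in the sources used here, so reads of overlapping genes can be split or lost. A symbol was found for 99.8% of rows, and 0 rows named no gene. Coordinates and merged exon lengths came from GENCODE M21 on GRCm38 (mm10).

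Computed here were TMM factors, the filterByExpr filter (minimum count 10, total 15), and edgeR 4.0.16 robust quasi-likelihood tests of ACKR4_KO against WT over 14406 genes, two-sided, Benjamini-Hochberg adjusted, in R 4.3.3. Standard errors are the log2 fold change over the root of the test statistic, and intervals use its degrees of freedom. Deviations used log2(CPM + 0.5). The fit was also run on simulated data in which both genotypes had the same spread. That setting differs from these libraries, so the run cannot say how the fit handles their unequal spread. DESeq2 1.42.0, limma 3.58.1, other scalings and filters, a replicate block and each library left out were alternatives. The members, the 8 other gene lists and the 14 marker lists were chosen with earlier results of these data known. Each member was named, and in the other lists up to 4 genes, those with the smallest p, together with further genes chosen after their values were seen. The genes most like a member were sought, for the 2 members with the smallest p, among genes of at least 2 CPM on average. Marker lists of B cells, neutrophils, red cells, lymphatic endothelium, mesothelium, adipocytes and fast skeletal muscle had 0 members past edgeR's test. DESeq2 called Tnni2 of skeletal muscle. Fast skeletal muscle markers summed to 2.41 to 80.1 CPM in WT and 1.37 to 6.76 CPM in ACKR4_KO. Adipocyte markers summed to 10.5 to 287 CPM in WT and 4.10 to 95.7 CPM in ACKR4_KO. Promoter sequences are RefSeq, GRCm38.p6, and matched 8 of 10 members.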

Additional observations from a re-analysis of the deposited data

How the results depend on the processing

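The count of 0 Klf genes past an adjusted p of 0.05 was the same under all 16 alternatives. Over all genes, the count of 0 was 24 of 25472 without a filter on low counts, and 41 of 25452 by DESeq2, run without edgeR's filter. It was 6 with the replicate block, and lay between 0 and 1 with each library left out, the 1 coming without ACKR4_KO replicate 3. At an unadjusted p under 0.05 Klf2 alone of the members passed, with limma-voom weighted per genotype and without ACKR4_KO replicate 1. Of all genes tested, 1014 of 14406 passed in the first setting and 1906 of 14565 in the second. Klf2 stayed below 0 (-0.73 to -0.22) and Klf13 above 0 (0.13 to 0.24) in all 16. The sign changed for Klf10 with RLE factors (0.0033) and DESeq2 (0.00065). With each library left out, Klf10 lay between -0.25 and 0.13, Klf11 between -0.061 and 0.24, Klf12 between -0.32 and 0.16, Klf3 between -0.24 and 0.12, Klf4 between -0.42 and 0.19, Klf6 between -0.39 and 0.086, and Klf7 between -0.042 and 0.29. The median over the members lay between -0.24 (without ACKR4_KO replicate 2) and 0.16 (without ACKR4_KO replicate 3). The labels do not say whether same-numbered samples share more than a number. The correlation of their deviations was 0.06, 0.06 and 0.13 for replicates 1, 2 and 3, which does not decide it. Not every sample correlated best with its own number. With the replicate block Klf2 had -0.53, and 0 Klf genes passed. Depth kept Klf5 alone of the members out of the main test, at 4 to 10 reads per library.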
